A study of Homo sapiens with 15 samples.

Results

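Transcripts of prostaglandin synthesis, reception and removal were followed in 12Z cells, an immortalized line of human endometriotic epithelial cells. The genes were taken by name, and these 10 genes are PLA2G4A, PTGS1, PTGS2, PTGES, PTGES2, PTGES3, PTGER2, PTGER4, SLCO2A1 and HPGD, out of 60617 genes in the count files. RNA sequencing covered 15 libraries in 5 groups of 3, and the study's methods describe them as independent experiments. All groups had a pBabe plasmid and a serum-free period of 4 hours before vehicle or insulin for 24 hours. The NT group had non-targeting siRNA, the empty pBabe vector and vehicle. The other groups had siRNA against RSAD2 (siRSAD2), which encodes the interferon-induced antiviral enzyme viperin. They were the siRSAD2 group with empty vector and vehicle, siRSAD2 + Insulin with empty vector and 100 nM insulin, siRSAD2 + PIK3CA H1047R with vehicle, and siRSAD2 + PIK3CA H1047R + Insulin. H1047R is an activating mutation of the kinase subunit that PIK3CA encodes. The plasmids were transfected transiently into a single cell line, and insulin and H1047R were compared here only in cells that also had siRSAD2.

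Prostaglandins are made from arachidonic acid, which phospholipases such as PLA2G4A cut from membrane lipids. The cyclooxygenases PTGS1 and PTGS2 convert it to prostaglandin H2, and prostaglandin E synthases turn that into prostaglandin E2. Prostaglandin E2 acts through receptors that include EP2 (PTGER2) and EP4 (PTGER4), both of which raise cyclic AMP, until it is taken up by SLCO2A1 and oxidized by HPGD. In endometriosis this pathway is known for its part in pain, inflammation and local estrogen synthesis.

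The libraries held 16.1 to 39.7 M gene counts (median 24.3 M), and all 10 genes averaged at least 1 count over the libraries, the filter that left 23184 genes in all. RSAD2 itself had 3.0 to 3.69 CPM in the NT libraries and 0.0768 to 0.691 CPM in the siRSAD2 libraries, and with H1047R or insulin it stayed at or below 1.41 CPM. PIK3CA had 84.5 to 92.1 CPM in the siRSAD2 libraries, 199 to 223 CPM with H1047R under vehicle and 160 to 164 CPM with H1047R under insulin. CPM is the count over the library size in M after TMM scaling, and a count of 3 corresponds to 0.0758 to 0.179 CPM. The cells had 821 to 1151 CPM of the epithelial keratin KRT8, but the epithelial adhesion genes EPCAM and CDH1 stayed at or below 0.610 and 1.00 CPM while the stromal collagen COL3A1 had 1559.8 to 2182 CPM, so the epithelial label held for keratins and not for these adhesion genes. Of the siRSAD2 libraries, replicate 3 stood apart, with 486 genes at more than 3 times the level of every other library (0 to 8 genes in the others). None of the 10 prostaglandin genes was among them. In siRSAD2 + Insulin, replicate 2 differed more from its group than any other library did, as the chi-square over degrees of freedom was 11.4 to 12.3 for its pairs and at most 6.16 for other pairs within a group. Calls of members in comparisons that hold these libraries are given with and without them, as are calls of other genes that were lost without them.

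The plot of levels per length orders the genes by TPM, a length-scaled abundance (transcripts per M transcripts), which divides counts by exon length and is used here only to compare genes with each other. PTGES3, a cytosolic E synthase better known as the HSP90 co-chaperone p23, had 602 ± 30.6 TPM (SD over 15 libraries) and made up 92.6 to 95.3% of the TPM of the 10 genes. Its 5 pseudogenes (PTGES3P) could share reads with it and summed to 1.89 to 4.33 CPM, against 469 to 527 CPM for PTGES3. The inducible microsomal synthase PTGES followed with 17 ± 3.39 TPM and the second microsomal synthase PTGES2 with 13.9 ± 1.45 TPM. These levels overlapped, and PTGES2 was above PTGES in 3 libraries. Their order rests on the exon lengths, which join all annotated exons, 1891 bases for PTGES and 6084 for PTGES2. In CPM PTGES2 was the higher, with 20.4 against 7.76 on average. The receptor PTGER2 had 3.65 ± 0.534 TPM and was above PTGER4 (1.17 ± 0.559 TPM) in all 15 libraries. The transporter SLCO2A1 had 1.2 ± 0.37 TPM, which overlapped PTGER4. At the low end, PTGS1 had 0.702 ± 0.302 TPM, PTGS2 0.434 ± 0.252, HPGD 0.185 ± 0.107 and PLA2G4A 0.135 ± 0.149. PTGS1 was above PTGS2 in 13 of 15 libraries. Both cyclooxygenases, the phospholipase and the degrading enzyme were thus measured from few reads, with 0 to 8 counts per library for PLA2G4A, 0 to 13 for HPGD, 5 to 39 for PTGS1 and 2 to 40 for PTGS2, against 8414 to 19936 for PTGES3.

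**Figure D1:**
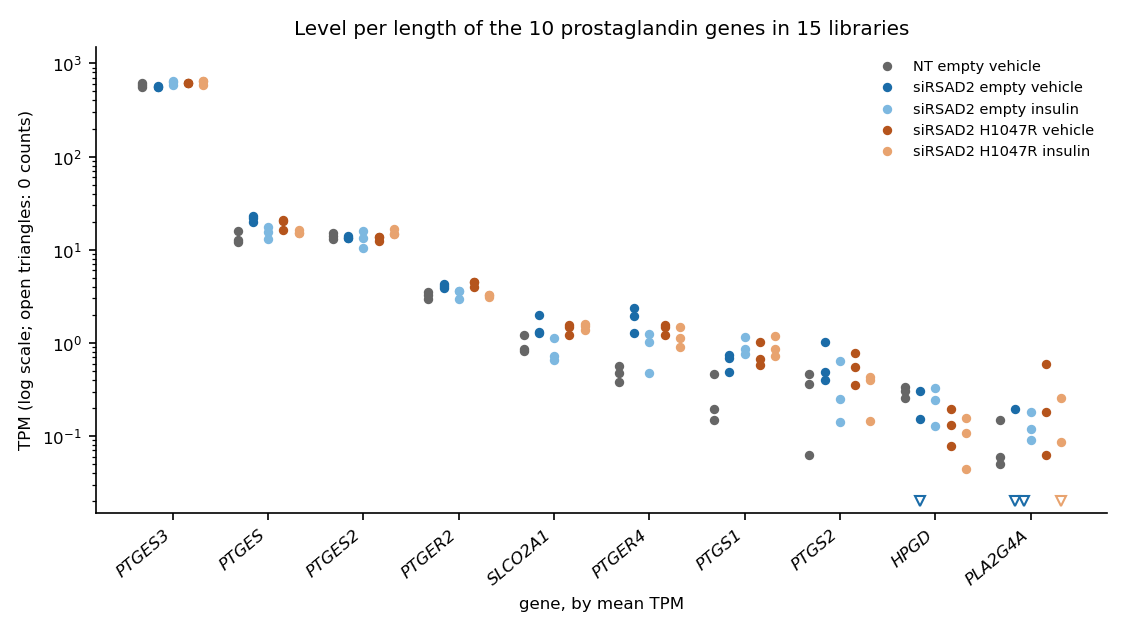
TPM on a log scale (vertical axis) of the 10 genes, ordered by mean TPM (horizontal axis), with a point for each of the 15 libraries coloured by group and open triangles for libraries with 0 counts. PTGES3 lies at 560.2 to 647 TPM, far above the others, and HPGD and PLA2G4A include libraries at 0.

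Knockdown of RSAD2 was compared with the NT group to ask what siRSAD2 changes without insulin. Loss of viperin and other effects of the siRNA cannot be told apart in this comparison. The NT libraries carry replicate numbers 4 to 6 and the siRSAD2 libraries 1 to 3, and what the numbers mark is not stated. PTGER4, PTGES and PTGS1 rose with siRSAD2, and none of the 10 genes fell. The 3 calls of 10 stand beside 19.5% of all genes called in this comparison (9.82% higher). The median log2 fold change of the 10 genes was 0.46, against 0.02 over all genes tested. Without both libraries that stood apart 2 were called, PTGER4 and PTGES.

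The receptor EP4 gene PTGER4 (ENSG00000171522.6, hg38 chromosome 5, 40679915 to 40693735, plus strand) had 0.429, 0.503 and 0.343 CPM in the NT libraries and 1.69, 1.11 and 2.05 CPM in the siRSAD2 libraries. Every siRSAD2 library was above every NT library, and the counts went from 8 to 14 per library to 29 to 59. The log2 rise was 1.91 ± 0.36 (SE; edgeR adjusted p = 0.000187), a 3.76-fold difference with a 95% interval of 2.26 to 6.26. Without siRSAD2 replicate 3 it was 1.70 (adjusted p = 0.00163). TTC33, a gene on the other strand, spans all 13821 bases of PTGER4 and had 34.0 to 56.2 CPM. Of the stranded counts of PTGER4 in both orientations, pooled over the libraries, 2.01% were antisense to the gene. With unstranded counts PTGER4 was still called in this comparison. The related EP2 gene PTGER2 (ENSG00000125384.7) had 2.18, 1.83 and 2.02 CPM in the NT libraries and 2.49, 2.38 and 2.60 CPM with siRSAD2. Its groups did not overlap, but the difference of 0.31 ± 0.19 did not pass (adjusted p = 0.279).

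The synthase gene PTGES (ENSG00000148344.11, hg38 chromosome 9, 129738331 to 129753042, minus strand) had 6.04, 7.51 and 5.71 CPM in the NT libraries and 9.16, 10.7 and 10.2 CPM with siRSAD2. The groups did not overlap, and PTGES rose by 0.63 ± 0.12 on the log2 scale (adjusted p = 0.000326), which is 1.55-fold with an interval of 1.30 to 1.85. Without siRSAD2 replicate 3 the rise was 0.62 (adjusted p = 0.00169). PTGES2 (21.9, 23.3 and 20.0 CPM against 20.0, 21.0 and 20.1 CPM) differed by -0.10 ± 0.09 and PTGES3 (482, 503 and 527 CPM against 469, 473 and 482 CPM) by -0.09 ± 0.04, and neither passed (adjusted p = 0.540 and 0.173). The 95% interval of the PTGES3 difference ran from -0.18 to 0.0018 on the log2 scale.

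The constitutive cyclooxygenase gene PTGS1 (ENSG00000095303.17, hg38 chromosome 9, 122370530 to 122395703, plus strand) had 0.286, 0.683 and 0.215 CPM in the NT libraries and 1.04, 0.692 and 0.972 CPM with siRSAD2. The groups were separated by the narrow gap between 0.683 and 0.692 CPM. The rise was 1.16 ± 0.40 on the log2 scale (adjusted p = 0.0372), 2.24-fold with an interval of 1.27 to 3.93. The call rested on single libraries, since it was lost without NT replicate 4 (0.96, adjusted p = 0.146), without NT replicate 6 (0.91, adjusted p = 0.159), without siRSAD2 replicate 1 (1.06, adjusted p = 0.104) and without siRSAD2 replicate 3 (1.10, adjusted p = 0.0879). It was also lost with only the NT and siRSAD2 libraries in the edgeR fit (1.17, adjusted p = 0.0897). The inducible cyclooxygenase gene PTGS2 (ENSG00000073756.12, hg38 chromosome 1, 186671791 to 186680922, minus strand) had 0.644, 0.503 and 0.0858 CPM in the NT libraries and 0.657, 0.538 and 1.39 CPM with siRSAD2. The groups overlapped and the highest value came from siRSAD2 replicate 3. The difference of 1.03 ± 0.54 did not pass (adjusted p = 0.195), and without that library it was 0.50 (adjusted p = 0.642).

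Among the genes of removal, SLCO2A1 (ENSG00000174640.15) had 1.07, 1.58 and 1.12 CPM in the NT libraries and 1.59, 2.54 and 1.67 CPM with siRSAD2. These values did not overlap, and the difference of 0.61 ± 0.26 did not pass (adjusted p = 0.105). HPGD (ENSG00000164120.14) had 0.358, 0.467 and 0.429 CPM in the NT libraries and 0.415, 0 and 0.208 CPM with siRSAD2, with adjusted p = 0.389. PLA2G4A (ENSG00000116711.10) had 5 counts over the NT libraries and 4 over the siRSAD2 libraries, so no difference was detectable at this depth.

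The upstream bases of PTGER4 and PTGES are shown because both genes were called in this comparison under every alternative tried, and those of PTGS2 because it is the inducible cyclooxygenase. RefSeq tables gave such bases for 9 of the 10 genes, all but SLCO2A1. They are printed on the gene's strand and end just before the RefSeq start on GRCh38.p14. Capitals mark matches, on either strand, to TATAAA (the TATA box of core promoters), to TGACG (core of the cAMP response element), to GGGCGG (GC box) or to CACGTG (E-box), which did not overlap each other. PTGS2 covers chr1:186680424-186680673 on the minus strand, PTGES chr9:129753043-129753292 on the minus strand and PTGER4 chr5:40679665-40679914 on the plus strand. The PTGS2 stretch lies inside the gene interval given above, since GENCODE places the start of PTGS2 farther upstream, at 186680922. Distances below are from the RefSeq start.
PTGS2: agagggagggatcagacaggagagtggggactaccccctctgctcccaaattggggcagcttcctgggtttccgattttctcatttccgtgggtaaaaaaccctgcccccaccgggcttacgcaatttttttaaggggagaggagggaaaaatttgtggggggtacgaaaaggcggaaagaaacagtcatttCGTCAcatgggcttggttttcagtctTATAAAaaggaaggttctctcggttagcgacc
PTGES: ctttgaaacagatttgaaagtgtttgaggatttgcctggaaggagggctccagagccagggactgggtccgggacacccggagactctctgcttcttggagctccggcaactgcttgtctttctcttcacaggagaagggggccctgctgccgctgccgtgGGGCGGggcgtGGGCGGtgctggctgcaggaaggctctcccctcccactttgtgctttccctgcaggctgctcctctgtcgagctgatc
PTGER4: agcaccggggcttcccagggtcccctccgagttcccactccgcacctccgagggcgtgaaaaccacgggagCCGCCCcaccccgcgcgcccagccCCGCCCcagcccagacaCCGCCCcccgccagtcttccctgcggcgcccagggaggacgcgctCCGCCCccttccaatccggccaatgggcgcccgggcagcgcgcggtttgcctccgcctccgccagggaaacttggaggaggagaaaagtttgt

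PTGS2 has a TATA box whose first base lies 32 bases before the start and a match to the cAMP element core 58 bases before it. PTGES has 2 GC boxes, 78 and 89 bases before the start, and PTGER4 has 4, between 93 and 179 bases before it. Neither PTGES nor PTGER4 has a match to TATAAA or TGACG here, and none of these stretches has CACGTG. Among 35116 RefSeq windows of the same length, TATAAA occurs in 10.7%, TGACG in 21.2%, GGGCGG in 42.6% and CACGTG in 6.34%. The share of G and C was 50.4% for PTGS2, 61.2% for PTGES and 72.8% for PTGER4, against a median of 58% over all windows.

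**Figure D2:**
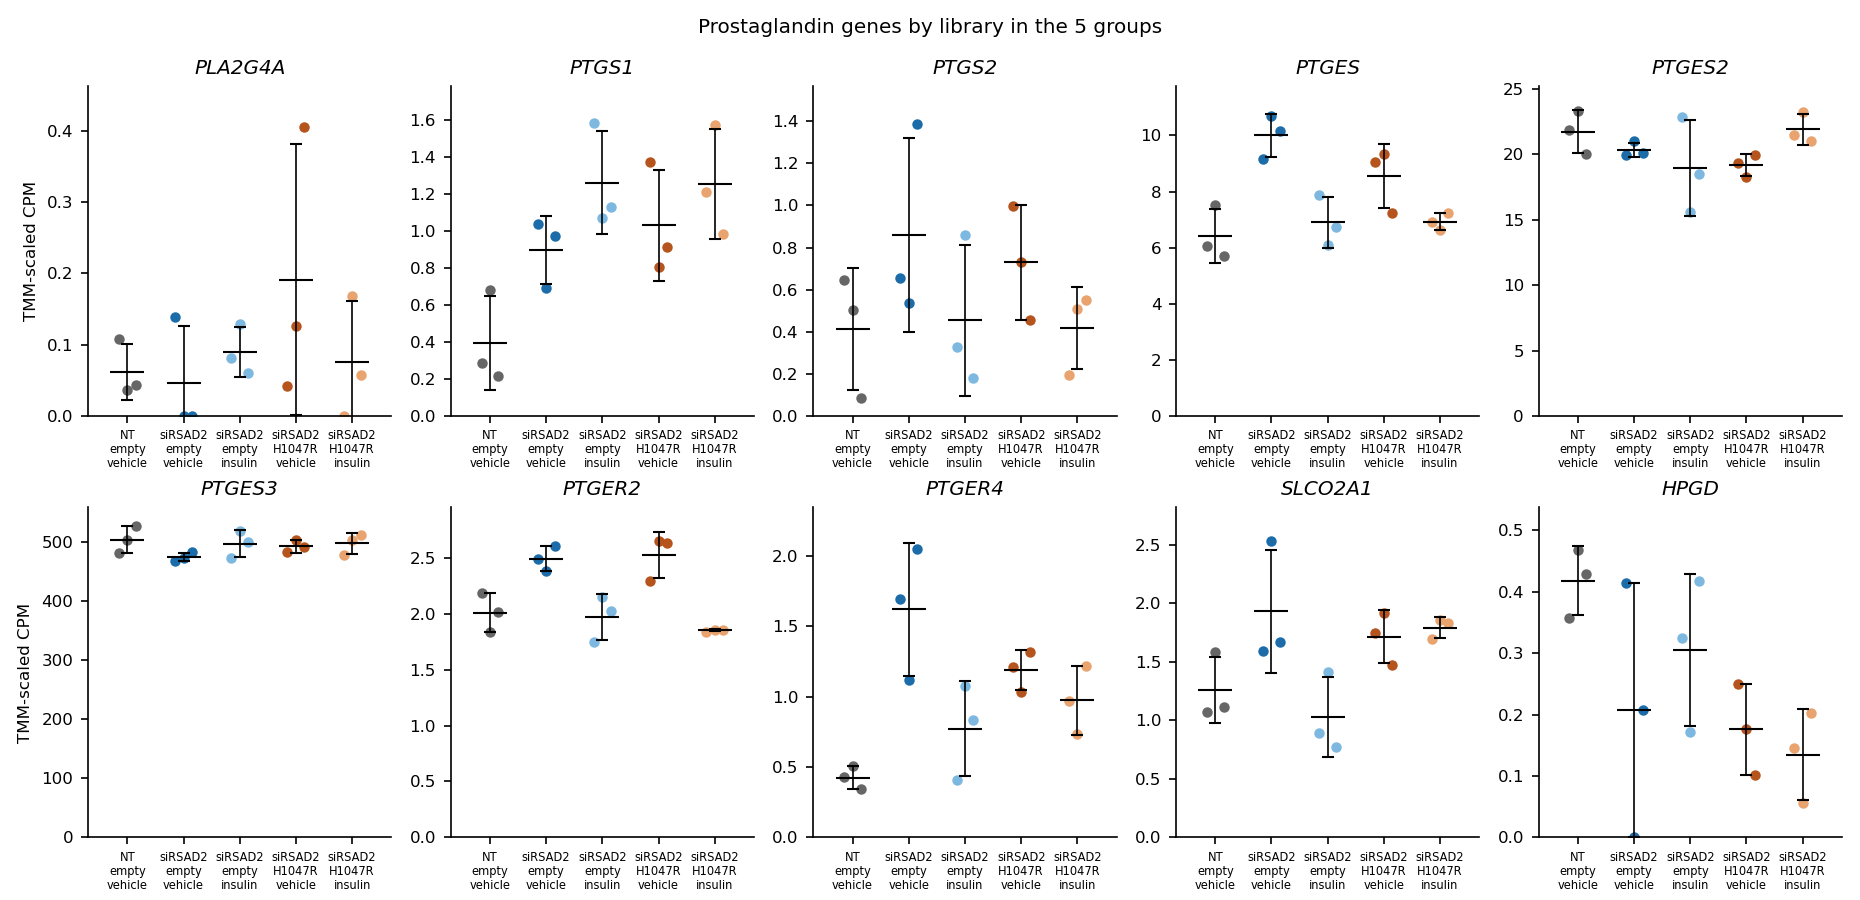
TMM-scaled CPM (vertical axes, from 0) of each of the 10 genes in the 5 groups (horizontal axes); points are libraries and bars are the mean with SD of 3 libraries. PTGER4, PTGES and PTGS1 lie higher in every siRSAD2 library with vehicle and empty vector than in every NT library, and PTGES lies lower again in every siRSAD2 + Insulin library.

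Marker genes of cell types also moved with siRSAD2. Their counts stand beside 9.72% of all genes called lower and 9.82% called higher. Of 6 epithelial markers 3 were lower, and their summed level was 1900.1 to 2038 CPM against 2352 to 2386 CPM in the NT libraries. Of 6 stromal markers 5 were lower and 1 higher, with sums of 6671 to 6765 CPM against 7142 to 7497 CPM. Endothelial markers summed to 2.05 to 2.94 CPM against 3.22 to 4.49 CPM, with none of 3 called. Of the 3 immune markers tested 1, PTPRC, was called higher, but its 1.35, 0.884 and 9.03 CPM overlapped the 0.715, 1.19 and 1.59 CPM of the NT libraries. Without siRSAD2 replicate 3 the difference of PTPRC was -0.04 (edgeR adjusted p = 0.970). Immune sums were 4.67 to 12.2 CPM against 4.17 to 5.92 CPM. The highest sum came from siRSAD2 replicate 3 as well, whereas CD3E had 0 counts in 14 libraries and MS4A1 in 11. Their part in the prostaglandin results was not tested, and in bulk RNA fewer cells of a type and less RNA per cell cannot be told apart.

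Insulin was compared with vehicle in siRSAD2 cells with empty vector, with the siRSAD2 libraries of the previous comparison now serving as the controls. PTGES fell, and it was the only call, 1 of 10 beside 6.28% of all genes called (4.19% lower). It had 7.89, 6.10 and 6.73 CPM with insulin against 9.16, 10.7 and 10.2 CPM with vehicle, so that every insulin library was below every vehicle library. PTGES fell by 0.53 ± 0.13 on the log2 scale (adjusted p = 0.00864), to 0.693 times the vehicle level with an interval of 0.579 to 0.829. Without siRSAD2 + Insulin replicate 2 the difference was -0.44 and just missed the threshold (adjusted p = 0.0512). Without both libraries that stood apart it was -0.43 (adjusted p = 0.103), and SLCO2A1 was then the only call.

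Other members lay lower with insulin without passing. PTGER4 had 0.407, 1.07 and 0.834 CPM with insulin, all below the 1.11 to 2.05 CPM of the vehicle libraries, a difference of -1.08 ± 0.34 (adjusted p = 0.0556). SLCO2A1 had 0.895, 1.42 and 0.774 CPM, all below the 1.59 to 2.54 CPM with vehicle, a difference of -0.88 ± 0.27 (adjusted p = 0.0510). Both genes lay close to the threshold. SLCO2A1 was called with DESeq2 (adjusted p = 0.0465), with RLE size factors (adjusted p = 0.0495), and without siRSAD2 + Insulin replicate 2 (-1.19, adjusted p = 0.0186). PTGER4 was called without that same library (-1.44, adjusted p = 0.0270), and without siRSAD2 replicate 3 its difference was -0.89 (adjusted p = 0.215). Of 10 alternatives 5 called SLCO2A1, and of 15 fits with a single library left out 2 did. The adjusted p of SLCO2A1 reached 0.200 in the former and 0.242 in the latter. PTGER2 had 1.75, 2.15 and 2.02 CPM with insulin, below the 2.38 to 2.60 CPM with vehicle (-0.34 ± 0.19, adjusted p = 0.356).

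The cyclooxygenases were not called with insulin. PTGS1 had 1.59, 1.07 and 1.13 CPM, above the 0.692 to 1.04 CPM of the vehicle libraries (0.49 ± 0.36, adjusted p = 0.504). PTGS2 had 0.325, 0.859 and 0.179 CPM and overlapped its vehicle libraries (-0.88 ± 0.55, adjusted p = 0.411). With each library left out its difference ran from -1.71 to -0.35, and no such fit called it. PTGES2 (22.9, 15.6 and 18.5 CPM) and PTGES3 (473, 518 and 501 CPM) overlapped their vehicle libraries as well, with adjusted p = 0.656 and 0.437. HPGD had 0.325, 0.172 and 0.417 CPM and PLA2G4A 6 counts in all, and neither differed detectably. The median log2 fold change of the 10 genes was -0.22, against 0.0010 over all genes. Marker genes moved here too, and their counts stand beside 4.19% of all genes called lower and 2.1% called higher. Stromal markers summed to 5691 to 6360.0 CPM with insulin, all below the 6671 to 6765 CPM with vehicle, and 2 of 6, VIM and COL3A1, were called lower. Epithelial sums of 1754 to 2054 CPM overlapped the 1900.1 to 2038 CPM with vehicle, and 1 of 6, KRT18, was called lower. Without both libraries that stood apart VIM was still called (-0.26, edgeR adjusted p = 1.87e-05), whereas COL3A1 (-0.10, adjusted p = 0.237) and KRT18 (-0.12, adjusted p = 0.178) were not. Endothelial sums were 2.86 to 3.82 CPM with none of 3 called. Immune sums were 4.08 to 5.57 CPM, and 1 of 3 markers tested, PTPRC, was called lower, with a difference of -0.33 (adjusted p = 0.743) without siRSAD2 replicate 3. The part of these markers in the prostaglandin results was not tested.

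In siRSAD2 + PIK3CA H1047R cells, insulin led to 0 calls among the 10 genes by edgeR, beside 2.47% of all genes. DESeq2 called 0 as well, but it gave an adjusted p for only 4 of the 10. At an unadjusted p below 0.05 in edgeR there were 2 of the 10, beside 10.8% of all genes. PTGES had 6.93, 6.64 and 7.23 CPM with insulin against 9.07, 9.34 and 7.25 CPM with vehicle. The groups were separated by a narrow gap, and the difference of -0.31 ± 0.13 did not pass (adjusted p = 0.296). PTGER2 had 1.84, 1.86 and 1.86 CPM against 2.29, 2.65 and 2.64 CPM, without overlap (-0.45 ± 0.19, adjusted p = 0.341). SLCO2A1 had 1.69, 1.86 and 1.83 CPM with insulin against 1.75, 1.92 and 1.47 CPM and overlapped (0.05 ± 0.26, adjusted p = 0.986). PTGER4 had 0.969, 0.731 and 1.22 CPM against 1.21, 1.04 and 1.32 CPM and overlapped as well (-0.24 ± 0.34, adjusted p = 0.923). The adjusted p of PTGS1, PTGS2, PTGES2, PTGES3, HPGD and PLA2G4A lay between 0.478 and 0.970.

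Averaged over both vectors, the insulin effect was called for PTGES, 1 of 10 genes beside 8.37% of all genes (5.22% lower). PTGES fell by 0.42 ± 0.09 (adjusted p = 0.00192) and by 0.37 without both libraries that stood apart (adjusted p = 0.00804). PTGER2 did not pass (-0.39 ± 0.14, adjusted p = 0.0745), although the 6 insulin libraries, at 1.75 to 2.15 CPM, all lay below the 6 vehicle libraries with siRSAD2, at 2.29 to 2.65 CPM. PTGER4 (-0.66 ± 0.24, adjusted p = 0.0946) and PTGS2 (-0.83 ± 0.39, adjusted p = 0.230) did not pass. Without siRSAD2 + Insulin replicate 2, PTGER4 passed (-0.84, adjusted p = 0.0375), while PTGS2 stayed short of the threshold (-1.24, adjusted p = 0.0544). For PTGES2 the average was 0.05 ± 0.07 and for PTGES3 0.04 ± 0.03, with intervals of -0.09 to 0.19 and -0.02 to 0.10. The insulin effect did not differ detectably between the vectors for any of the 10 genes, and the interaction gave 0 calls over all genes by edgeR, a share of 0%. DESeq2 gave 4 calls over all genes and an adjusted p for only 1 of the 10. At an unadjusted p below 0.05 in edgeR there were 1611 genes (6.95%), among them 2 of the 10. These were SLCO2A1, with an interaction of 0.93 ± 0.38 (adjusted p = 0.698), and PTGES2, with 0.29 ± 0.14 (adjusted p = 0.714).

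PIK3CA H1047R was compared with the empty vector within each treatment. In vehicle-treated siRSAD2 cells 0 of the 10 genes were called by edgeR, beside 1.36% of all genes, and 0 by DESeq2, which gave an adjusted p for only 3 of the 10. None of the 10 had an unadjusted p below 0.05 in edgeR, beside 12.5% of all genes. PTGES had 9.07, 9.34 and 7.25 CPM with H1047R and overlapped its controls (-0.21 ± 0.12, adjusted p = 0.50). PTGER4 had 1.21, 1.04 and 1.32 CPM and overlapped as well (-0.46 ± 0.32, adjusted p = 0.604). PTGS2 had 0.999, 0.732 and 0.456 CPM (-0.23 ± 0.51, adjusted p = 0.922). The highest PLA2G4A level of the series, 0.406 CPM from 8 counts, came from H1047R replicate 3 with vehicle, whereas its other replicates had 1 and 5 counts.

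In insulin-treated siRSAD2 cells 0 of the 10 were called by edgeR, beside 0.285% of all genes, and 0 by DESeq2, which again gave an adjusted p for only 3 of the 10. SLCO2A1 was the only one of the 10 with an unadjusted p below 0.05 in edgeR, beside 10.5% of all genes. Its H1047R libraries, at 1.69, 1.86 and 1.83 CPM, all lay above the libraries without H1047R, at 0.895, 1.42 and 0.774 CPM, and the difference of 0.78 ± 0.28 did not pass (edgeR adjusted p = 0.266). PTGES had nearly equal means, 6.93 ± 0.295 CPM with H1047R and 6.90 ± 0.909 CPM without (SD, n = 3), and the interval of the log2 difference ran from -0.27 to 0.28. Counts antisense to the genes made up 6.11 to 6.50% of stranded counts in all H1047R libraries and in siRSAD2 + Insulin replicate 3. They made up 5.77 to 5.89% in the other 8 libraries. With a term for these classes the call counts of the 10 genes were the same in every comparison, but estimates of H1047R changed sign for 3 of the 10 with vehicle and 4 with insulin. For PTGS2 they went from -0.23 to 1.46 with vehicle and from -0.13 to 1.23 with insulin. Just 1 library of the upper class had no H1047R, so class and H1047R can hardly be told apart, and the genes called over the whole table for H1047R with vehicle went from 316 to 3.

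**Figure D3:**
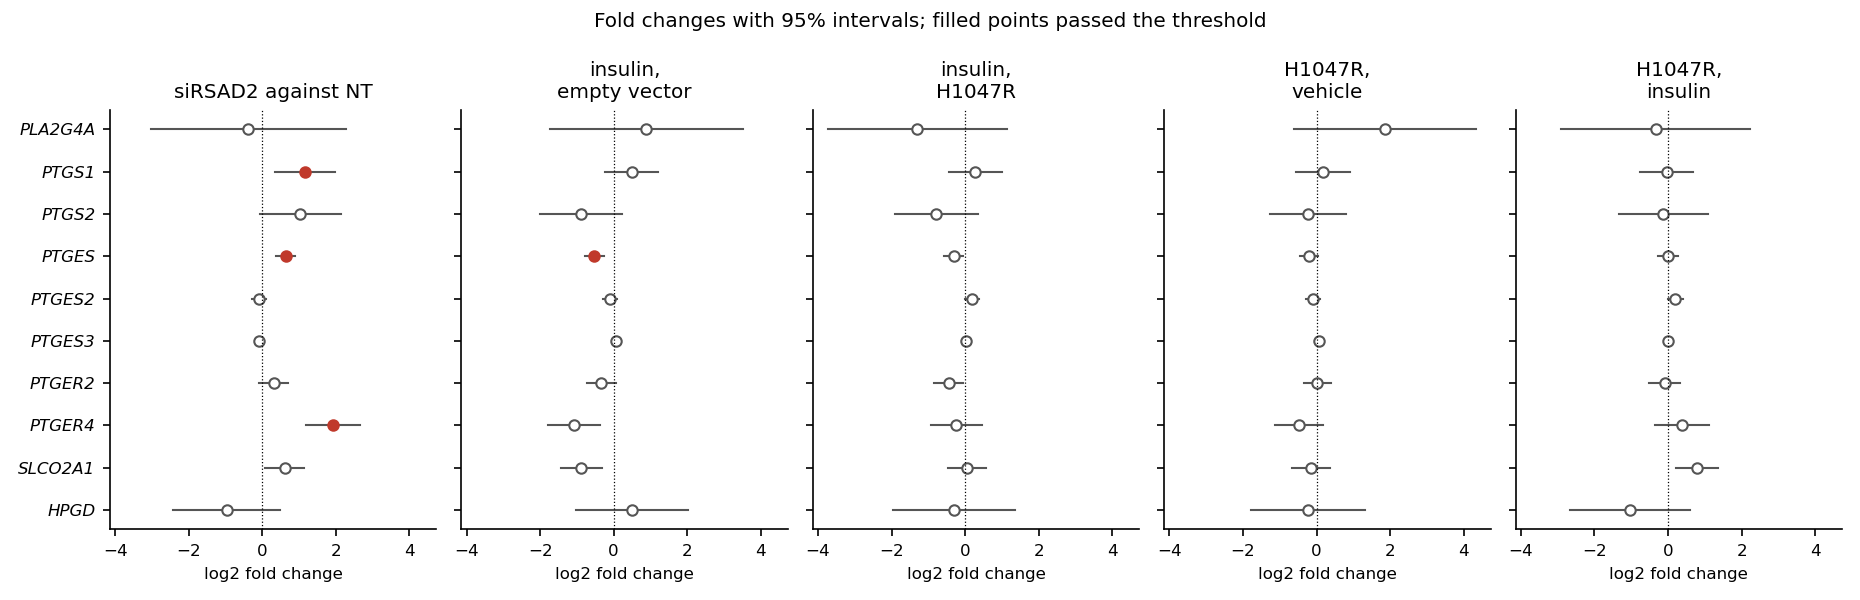
Log2 fold changes (horizontal axes) of the 10 genes (vertical axis) in the 5 comparisons of a pair of groups; points are edgeR estimates, lines are 95% intervals and filled points passed an adjusted p of 0.05. PTGS1, PTGES and PTGER4 pass with siRSAD2 and PTGES with insulin, and the intervals of PLA2G4A and HPGD are the widest.

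The steps around the 10 genes were described from lists of related genes, whose counts with siRSAD2 stand beside 9.82% of all genes called higher and 9.72% called lower. In the release and recapture of arachidonate, 10 of 15 genes passed the filter, and with siRSAD2 2 rose and 3 fell (median -0.14, against 0.02 over all genes). ACSL4, which loads arachidonate onto coenzyme A for return to the membrane, had 383, 402 and 389 CPM in the NT libraries and 232, 238 and 222 CPM with siRSAD2, and fell by 0.76 ± 0.05 (adjusted p = 5.66e-13). ANXA1, an annexin that restrains phospholipase activity, fell by 0.19 ± 0.04. MGLL, the lipase that frees arachidonate from its monoglyceride, rose by 0.49 ± 0.08 with siRSAD2, and fell by 0.37 ± 0.08 in siRSAD2 + Insulin against siRSAD2 (by 0.32 without both libraries that stood apart, edgeR adjusted p = 0.0170). The secreted phospholipase gene PLA2G3 rose by 2.31 ± 0.49 from a low level, with 0.107 to 0.257 CPM in the NT libraries and 0.521 to 0.968 CPM with siRSAD2. The cytosolic phospholipase gene PLA2G4C, at 3.73 CPM on average, lay above PLA2G4A, at 0.0929 CPM, and per length at 2.35 against 0.135 TPM.

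Of 8 synthases of other prostanoids 6 passed the filter, and with siRSAD2 1 fell and none rose. It was PTGIS, the prostacyclin synthase, with 4.93, 4.21 and 3.05 CPM in the NT libraries and 2.07, 1.23 and 1.60 CPM with siRSAD2. PTGIS fell by 1.31 ± 0.23 (adjusted p = 8.82e-05), opposite in sign to PTGES. No synthase on this list was called with insulin or H1047R in any comparison. PTGDS, the D synthase, and HPGDS were near 0, with 0 counts in 10 and 12 libraries.

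Of 7 other prostanoid receptors 5 passed the filter. PTGFR, the receptor for prostaglandin F2α, was the most abundant prostanoid receptor on the lists, with 20.4 TPM on average against 3.65 TPM for PTGER2. PTGFR was not called with siRSAD2. In siRSAD2 + Insulin against siRSAD2 it had 31.2, 36.4 and 31.1 CPM against 24.1, 28.7 and 26.6 CPM, and rose by 0.32 ± 0.08 (adjusted p = 0.0162), beside 2.1% of all genes called higher. The call was lost without siRSAD2 + Insulin replicate 2 (0.24, adjusted p = 0.104) and without siRSAD2 replicate 1 (0.25, adjusted p = 0.0915). Averaged over both vectors the rise of PTGFR was 0.26 ± 0.06 (adjusted p = 0.00278), opposite in sign to PTGES and beside 3.15% of all genes called higher. Without both libraries that stood apart it was 0.22 (adjusted p = 0.00878). The EP1 and EP3 receptor genes PTGER1 and PTGER3 were near the limit of detection, with 0 counts in 7 and 2 libraries.

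In export and breakdown 7 of 8 genes passed the filter, and with siRSAD2 3 fell and 1 rose. ABCC4, a pump that exports prostaglandins, went from 94.0 ± 3.64 to 73.4 ± 4.6 CPM (SD, n = 3) and fell by 0.36 ± 0.06, and the reductase PTGR1 fell by 0.33 ± 0.05. The organic anion transporter genes moved in opposite directions, as SLCO3A1 fell by 0.31 ± 0.07 while SLCO4A1 rose by 0.88 ± 0.11. With insulin in empty-vector cells SLCO4A1 just passed (-0.35 ± 0.11, adjusted p = 0.0470). That call was lost under 13 alternatives, with adjusted p = 0.144 without siRSAD2 replicate 3, 0.180 without siRSAD2 + Insulin replicate 2 and 0.0510 to 0.0902 where 8 other single libraries were left out.

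Of 12 genes that respond to cyclic AMP, the messenger of EP2 and EP4, all passed the filter, and with siRSAD2 4 rose and 1 fell (median 0.16, against 0.02 over all genes). The nuclear receptor gene NR4A2 had 1.68, 1.11 and 1.97 CPM in the NT libraries and 4.29, 3.53 and 3.99 CPM with siRSAD2, a rise of 1.32 ± 0.20 (adjusted p = 8.70e-06). NR4A3 rose by 1.14 ± 0.18 and the cyclic AMP phosphodiesterase gene PDE4D by 0.47 ± 0.08, while CREB1, the factor that binds the cAMP element, fell by 0.32 ± 0.05. With insulin NR4A2 fell by 0.81 ± 0.19 in empty-vector cells (adjusted p = 0.00876) and by 0.93 ± 0.19 in H1047R cells (adjusted p = 0.00281). Without both libraries that stood apart the first of these was -0.77 and just missed the threshold (adjusted p = 0.0509). PDE4D fell by 0.37 ± 0.08 in H1047R cells (edgeR adjusted p = 0.00879), a call lost under 2 alternatives. With insulin 1 of the 12 genes was called lower in empty-vector cells, beside 4.19% of all genes. In H1047R cells 2 were called lower, beside 2.47% of all genes called in either direction. None was called higher with insulin. These genes respond to many other signals, and the lists were drawn up with earlier results of these data known. With H1047R, under vehicle or insulin, no gene of these 5 lists was called, and by edgeR none was called for the interaction.

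**Figure D4:**
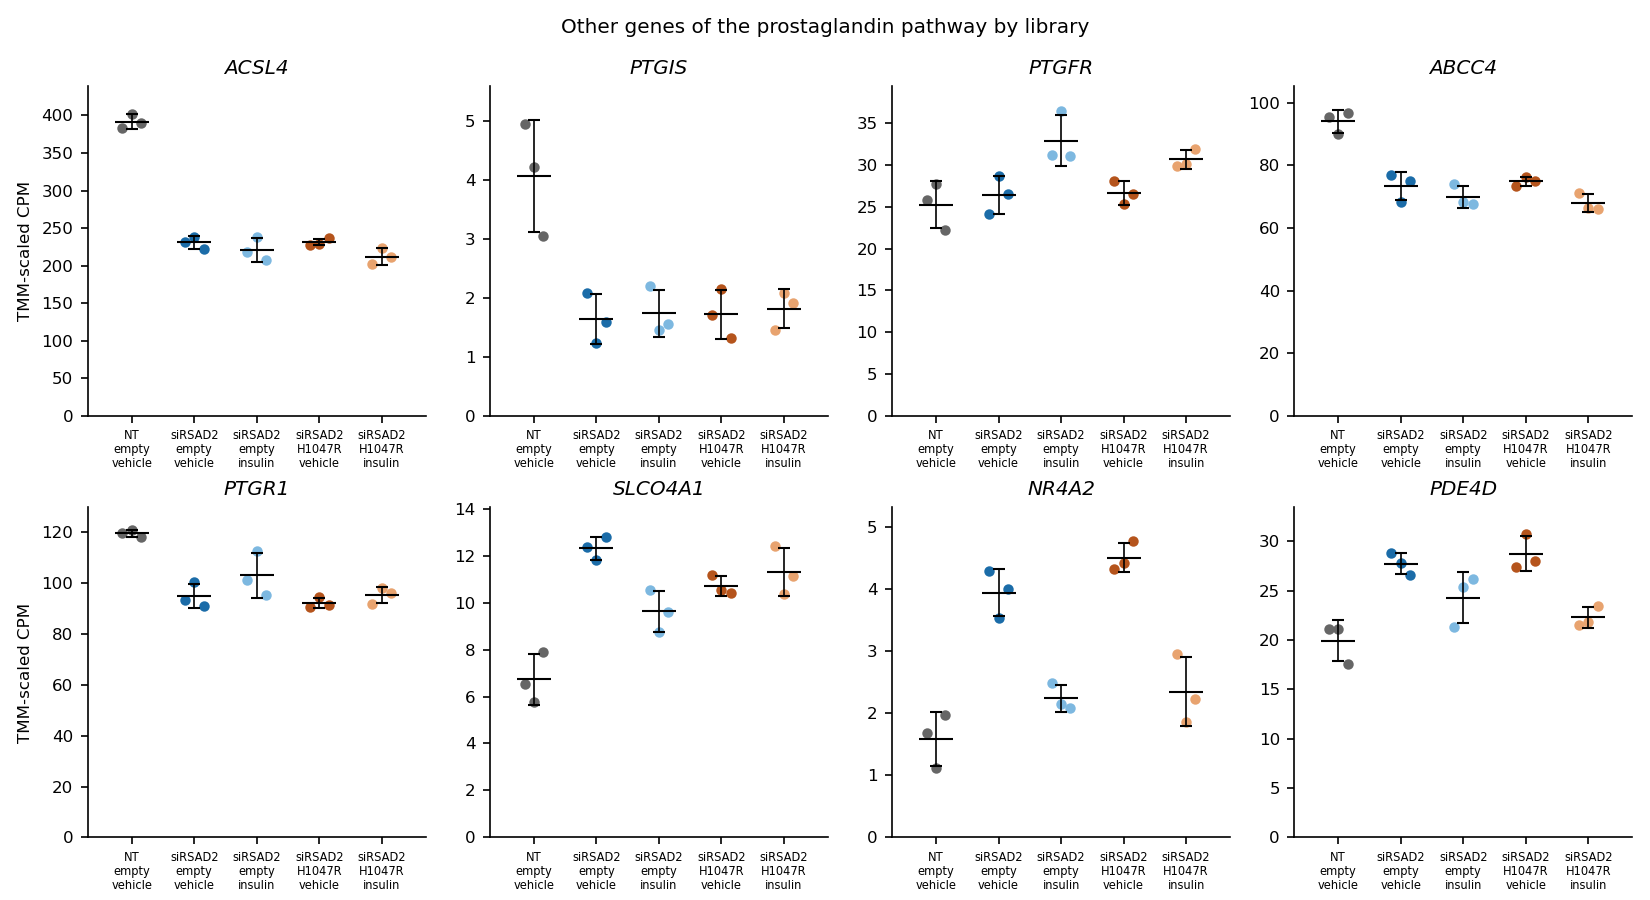
TMM-scaled CPM (vertical axes, from 0) of 8 genes around the prostaglandin pathway in the 5 groups (horizontal axes); points are libraries and bars are the mean with SD of 3 libraries. ACSL4, PTGIS, ABCC4 and PTGR1 lie lower in every siRSAD2 library than in every NT library, whereas NR4A2 lies higher with siRSAD2 and vehicle than with siRSAD2 and insulin.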

How the data were processed

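Processed files were used for 15 RNA-seq libraries of 12Z cells. Per the labels and methods, the authors used Trim Galore with cutadapt for trimming, FastQC for quality and STAR for alignment to hg38. The files they deposited hold the raw gene counts from STAR, not normalized. Tool versions are not given in the sources used here, and the annotation release they name is numbered as a mouse release although the gene identifiers are human. The reverse-stranded counts were used, as in the study, and 4 summary entries per file were kept out of library sizes. GENCODE release 44, matched on identifiers with the version removed (60357 of 60617), gave symbols, exon lengths and hg38 coordinates.

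The 23184 genes that averaged at least 1 count entered a single edgeR 4.0.16 fit of all 15 libraries under R 4.3.3. It had TMM scaling, 1 coefficient for each group and the quasi-likelihood F test. Adjusted p values are Benjamini-Hochberg over all genes tested, with a threshold of 0.05, and no p was adjusted over a list alone. Errors of log2 fold changes are SE, n = 3 per group. Precision of the rarer transcripts is limited by their counts and by the spread between libraries. The fit was tested on simulated data. Unadjusted p values of unchanged genes behaved as they should, but the share of false calls lay above the nominal level in most draws, and large changes were often missed at low counts. Calls just past the threshold, and non-calls of rare transcripts, are therefore less firm than their adjusted p. Labels gave every group.

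The 10 members and the lists of related genes were chosen with earlier results of these data known. Members are all named. From each other list, up to 4 called genes, taken in order of p, were open to naming, and abundance or absence of other list genes (PLA2G4C, PTGDS, HPGDS, PTGER1, PTGER3, CD3E, MS4A1, EPCAM, CDH1, LTA4H, ALOX5, CYP19A1, STAR) was named after values were seen. Alternatives were DESeq2 1.42.0, RLE factors, other filters, a threshold of 0.001, unstranded counts, fits of the compared groups alone, a block for the replicate number, and leaving out each library. A class term and the removal of both libraries that stood apart were added after seeing the data, as were the alternatives for genes of the related lists. No library pair was identical (lowest chi-square per degree of freedom 3.06).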

Additional observations from a re-analysis of the deposited data

How the results depend on the processing

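No direction of a called member reversed under any alternative. With siRSAD2 the call count of the 10 genes was 2 to 3 under every alternative and 2 to 3 with each library left out, and PTGES and PTGER4 were called each time. In siRSAD2 + Insulin against siRSAD2 the main count was 1. It was 2 with RLE size factors, 2 with no filter on low counts, 2 with DESeq2, 3 with the filter of edgeR and 0 at an adjusted p below 0.001, and 1 to 2 with each library left out. DESeq2 gave no adjusted p for 5 of the 10 there. The filters change the number of genes over which p is adjusted (16400, 23184 or 34757), and the cause of the other differences was not tested. For the averaged insulin effect the count was 1, 0 at an adjusted p below 0.001, and 1 to 2 with each library left out. For insulin with H1047R, H1047R under either treatment and the interaction it was 0 under every alternative and 0 with each library left out, although DESeq2 gave no adjusted p for 6, 7, 7 and 9 of the 10.

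Over all genes, H1047R with vehicle gave 64 to 711 calls and H1047R with insulin 19 to 463 with each library left out, against 316 and 66. With no filter on low counts they gave 707 and 418, and the interaction 81 in place of 0. In the siRSAD2 groups, deviations of same-numbered libraries from their group means correlated at -0.12 to 0.15, and those of other pairs at -0.14 to 0.12. No pairing by replicate number was thus seen, but with 3 libraries per group a weak one could be missed. The NT libraries, numbered apart, could not be checked. With the replicate number as a block in the siRSAD2 groups, 2 of the 10 genes were called for insulin with empty vector in place of 1, since SLCO2A1 passed (adjusted p = 0.0365). It changed no other call among the 10. Depth limits PLA2G4A and HPGD most, with means of 2.27 and 6.40 counts per library. Of 60 calls of genes on the related and marker lists, 37 were kept under every alternative at an adjusted p of 0.05. The direction of 1 reversed, PTPRC with siRSAD2, from 1.71 to -0.037 without both libraries that stood apart and to -0.038 to 2.19 with each library left out.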

Other observations

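Outside the prostanoid steps, genes of the lipoxygenase and leukotriene branch were mostly near 0, and 7 of 13 passed the filter. LTA4H, the leukotriene A4 hydrolase, was by far the highest of them on the CPM scale, with 132 to 150 CPM, whereas ALOX5 had 0 counts in 10 libraries. With siRSAD2 ALOX12B, an epidermal lipoxygenase, rose from 0.0717 to 0.453 CPM on average (edgeR adjusted p = 0.00272), which was lost with unstranded counts (adjusted p = 0.0720). CYSLTR2, a receptor for cysteinyl leukotrienes, had a difference of -1.31 ± 0.38 on the log2 scale with insulin averaged over both vectors, from a low level (adjusted p = 0.0278). The call was lost under 8 alternatives, 6 of them with a single library left out (adjusted p = 0.0516 to 0.0846). No gene of this branch was called with H1047R.

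Proteins that bind the PTGS2 transcript and set its decay were all measured, 10 of 10. With insulin in empty-vector cells 2 fell and none rose, beside 4.19% of all genes called lower and 2.1% called higher. ZFP36, which promotes the decay of AU-rich transcripts, went from 17.1 ± 0.963 to 12.8 ± 1.30 CPM (SD, n = 3) and fell by 0.40 ± 0.10 (adjusted p = 0.00798, and 0.0532 with the term for library class), and its relative ZFP36L1 fell by 0.25 ± 0.05 (adjusted p = 0.00247). PTGS2 itself was not called there. Of 8 steroidogenic genes tied to prostaglandin E2 in endometriosis, 3 passed the filter. CYP19A1, the aromatase, had 0 counts in 13 libraries and STAR had 0.575 to 2.00 CPM. NR2F2, a nuclear receptor that represses aromatase, rose by 0.33 ± 0.04 with siRSAD2 (adjusted p = 1.32e-06) and fell by 0.20 ± 0.04 with insulin (adjusted p = 0.00459) and by 0.24 ± 0.04 with H1047R under vehicle (adjusted p = 0.00499). With the term for library class the last of these was -0.12 and was not called (adjusted p = 0.939), and the fall with insulin was not called with only those groups in the fit (adjusted p = 0.0693). These comparisons share the siRSAD2 libraries.

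The genes whose log2 CPM over the 15 libraries was most like that of PTGS2, among 13507 genes with a mean of at least 1 CPM, were LRRK1 (Pearson r = 0.85), LINC01444 (0.83), PITPNC1 (0.83), ANKRD20A5P (0.81) and MYG1-AS1 (0.80). This is a description over libraries that differ in group and depth, with 2 to 40 counts of PTGS2 in each.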
